A study of Homo sapiens with 8 samples.

Results

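The G1 cyclins and the inhibitors of cyclin-dependent kinases (CDKs) were followed by their 10 listed symbols, matched through the transcript accession of each array probe: the D cyclins CCND1, CCND2 and CCND3, the E cyclins CCNE1 and CCNE2, the CIP/KIP inhibitors CDKN1B and CDKN1C, and the INK4 inhibitors CDKN2B, CDKN2C and CDKN2D. All 10 were among the 19043 genes kept for analysis. Of these, 7 were well above background on all 8 arrays, CCNE2 on 7 arrays, and CCND2 and CDKN2B on none. The samples were A549 cells, an established line from a human lung carcinoma, in 2 series with no genetic change given for any group. In the EEDS series, cells received the vehicle or the ethanol extract of D. sophia seeds (EEDS) at 1.25, 5 or 20 μg/mL, and in the helveticoside series they received the vehicle or helveticoside, a cardiac glycoside, at 3.75, 15 or 60 nM. The doses of each series are called low, middle and top, and equal names do not mean matched doses of both agents. Cells were grown for 24 h before treatment. The labels give 48 h of exposure, while the study's methods give a shorter one. RNA of 3 cultures was pooled for each array, and each dose had 1 array, so a single dose has no replicate error and no p-value. Agent and series cannot be told apart, since each agent was measured in a series of its own. RNA of whole cultures also does not tell fewer cells in a phase of the cell cycle from less RNA per cell.

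As background, a cell in G1 enters S phase when cyclin-CDK complexes phosphorylate the retinoblastoma protein and free the E2F factors that drive the genes of DNA replication. D cyclins activate CDK4 and CDK6, and E cyclins activate CDK2. INK4 inhibitors bind CDK4 and CDK6 and keep D cyclins from them, while CIP/KIP inhibitors bind cyclin-CDK complexes, above all those of CDK2. E2F factors also drive the E cyclins and CDKN2C, so the levels of these genes follow the cell cycle.

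The authors deposited the scanner intensity of 43118 probe spots per array. The median spot signal was 182 to 214 on the EEDS arrays and 223 to 278 on the helveticoside arrays, and no spot was saturated. The scanner software called 63.4% to 64.9% of the EEDS probes and 54.5% to 59.5% of the helveticoside probes well above background. All 5 epithelial markers and all 6 detoxifying enzymes known for their high level in A549 cells were well above background on all 8 arrays. Of the markers of other cell types, 3 of 6 for fibroblasts (COL1A2, DCN and PDGFRB), CD3E of 5 for leukocytes and 3 of 4 for endothelium (PECAM1, VWF and KDR) were well above background on no array, while COL1A1, PTPRC, CD68 and CDH5 were on all 8. Normalized intensities summed over each whole list ran over the arrays from 298 to 637 for fibroblasts, 461 to 808 for leukocytes and 147 to 246 for endothelium, against 667395 to 903467 for the epithelial list. The fibroblast sum was 637 at the top dose against 372 on the vehicle array for EEDS and 430 against 298 for helveticoside, and the leukocyte sum was 776 against 501 and 658 against 461. The enzyme sum was 393248 at the top dose against 737721 on the vehicle array for EEDS and 357052 against 808064 for helveticoside. All 6 enzymes lay below the vehicle at the middle and top doses of both agents. Of the 5 epithelial markers, CDH1 was more than 2-fold lower and CLDN1 more than 2-fold higher than the vehicle at both top doses. The part of these differences in the results was not tested. Between the vehicle arrays of both series, log2 levels differed with an SD of 0.48 over the 11491 genes that passed the background call on every array. On the helveticoside vehicle array, 405 of these genes were over 2-fold up and 141 over 2-fold down from the EEDS vehicle array.

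The window of 250 bases before the transcription start is shown for 3 of the 6 genes with a promoter. They are CCNE1, an E cyclin lower at the middle dose than on the vehicle array, and CDKN1B and CDKN2D. The levels of these inhibitors were above the vehicle at every dose. Of the 3 genes shown, only CDKN2D was more than 2-fold from the vehicle at any dose or passed the test of a dose trend given below. CCND3 and CDKN2C were also more than 2-fold from the vehicle, and their windows are not shown. Sequences are from RefSeq, build GRCh38.p14, printed 5′ to 3′ on the gene's strand, and end at the last base before the start. CCNE1 lies on the plus strand (chr19:29811741-29811990), CDKN1B on the plus strand (chr12:12717118-12717367) and CDKN2D on the minus strand (chr19:10568980-10569229). Capitals mark the GC box, GGGCGG, and the CCAAT box, CCAAT, on either strand.
CCNE1: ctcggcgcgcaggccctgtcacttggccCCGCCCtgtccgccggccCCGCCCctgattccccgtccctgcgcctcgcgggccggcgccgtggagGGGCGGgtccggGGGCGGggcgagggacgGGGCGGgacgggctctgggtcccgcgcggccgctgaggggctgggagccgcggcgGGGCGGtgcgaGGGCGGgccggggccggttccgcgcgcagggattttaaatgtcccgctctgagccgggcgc
CDKN1B: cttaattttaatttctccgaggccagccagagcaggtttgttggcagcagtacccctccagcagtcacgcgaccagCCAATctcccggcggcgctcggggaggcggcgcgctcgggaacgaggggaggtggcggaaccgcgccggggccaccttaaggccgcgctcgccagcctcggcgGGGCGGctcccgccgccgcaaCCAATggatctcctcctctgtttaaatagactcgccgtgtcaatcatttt
CDKN2D: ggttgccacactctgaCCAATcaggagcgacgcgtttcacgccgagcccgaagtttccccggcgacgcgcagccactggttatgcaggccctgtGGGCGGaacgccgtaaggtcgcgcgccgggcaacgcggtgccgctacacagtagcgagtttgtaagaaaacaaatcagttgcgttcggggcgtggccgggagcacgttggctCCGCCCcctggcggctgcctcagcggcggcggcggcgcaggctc
The CCNE1 window held 7 GC boxes and no CCAAT box, the CDKN1B window 1 GC box and 2 CCAAT boxes, and the CDKN2D window 2 GC boxes and 1 CCAAT box. Over all 35116 RefSeq promoter windows of this length, 42.6% held a GC box and 32.0% a CCAAT box. Promoters were found for 6 of the 10 genes, and none of the 6 held the letters of an E2F site searched here (TTTCCCGC, TTTCGCGC, TTTGCCGC or TTTGGCGC, both strands), which 3.40% of 27305 genes did. The same letters were in 7 of the 13 S phase genes with a promoter and in 5 of 11 genes of the RB family and E2F factors. The absence of a match says only that these letters are not in this window.

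Each treated array was compared with the vehicle array of its own series, and a log2 ratio past 2-fold in either direction was counted. At the low dose no member passed 2-fold, while over all genes 4.28% were higher and 3.41% lower with EEDS, and 1.88% were higher and 1.69% lower with helveticoside. At the middle dose, CDKN1C was more than 2-fold higher with both agents, against 8.09% of all genes for EEDS and 6.19% for helveticoside. CCND3, CCNE2 and CDKN2C were more than 2-fold lower at the middle dose of EEDS, 3 of the 8 genes with a ratio against 9.06% of all genes. CCNE2 and CDKN2C were so at the middle dose of helveticoside, 2 of 8 against 7.91%. At the top dose, CCND1, CDKN1C and CDKN2D were more than 2-fold higher with both agents, 3 of 8 against 15.5% of all genes for EEDS and 11.5% for helveticoside. Only CCND3 was more than 2-fold lower at the top dose of EEDS, against 16.8% of all genes, and CCND3, CCNE2 and CDKN2C were so at the top dose of helveticoside, against 14.2%.

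The one test that the design allowed was of a dose trend. It fitted log2 levels with limma over the 8 arrays, with a level and a slope per dose step (vehicle, low, middle, top) for each series, and the scatter of the arrays about these lines stood in for replicates. A dip at the middle dose departs from such a line and counts as scatter, so this test does not address that shape. With Benjamini-Hochberg adjustment over 19043 genes, 2 of the 10 members rose with EEDS (CDKN1C and CDKN2D), where 7.30% of all genes rose, and CCND3 fell, where 7.90% of all genes fell. With helveticoside, CDKN1C rose, where 5.52% of all genes rose, and no member fell, where 5.85% of all genes fell. A slope that differs between the agents was called for 0 of 19043 genes by limma, with 526 at an unadjusted p under 0.05 and none of the members among them. The steps of the agents are not matched doses, so a slope difference compares them per step and not at equal exposure. No gene of the 19043 was called for either agent without the low, the middle or the top dose of each series or within 1 series alone, so these fits do not bear on single members. Without 1 dose of each series, the slope of CDKN1C was 0.49 to 0.57 log2 units per step with EEDS and 0.53 to 0.56 with helveticoside. For EEDS, that of CDKN2D was 0.49 to 0.65 and that of CCND3 was -0.69 to -0.42. With the dose itself in place of the step, no member was called, while 2196 genes were for EEDS and 822 for helveticoside.

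**Figure D1:**
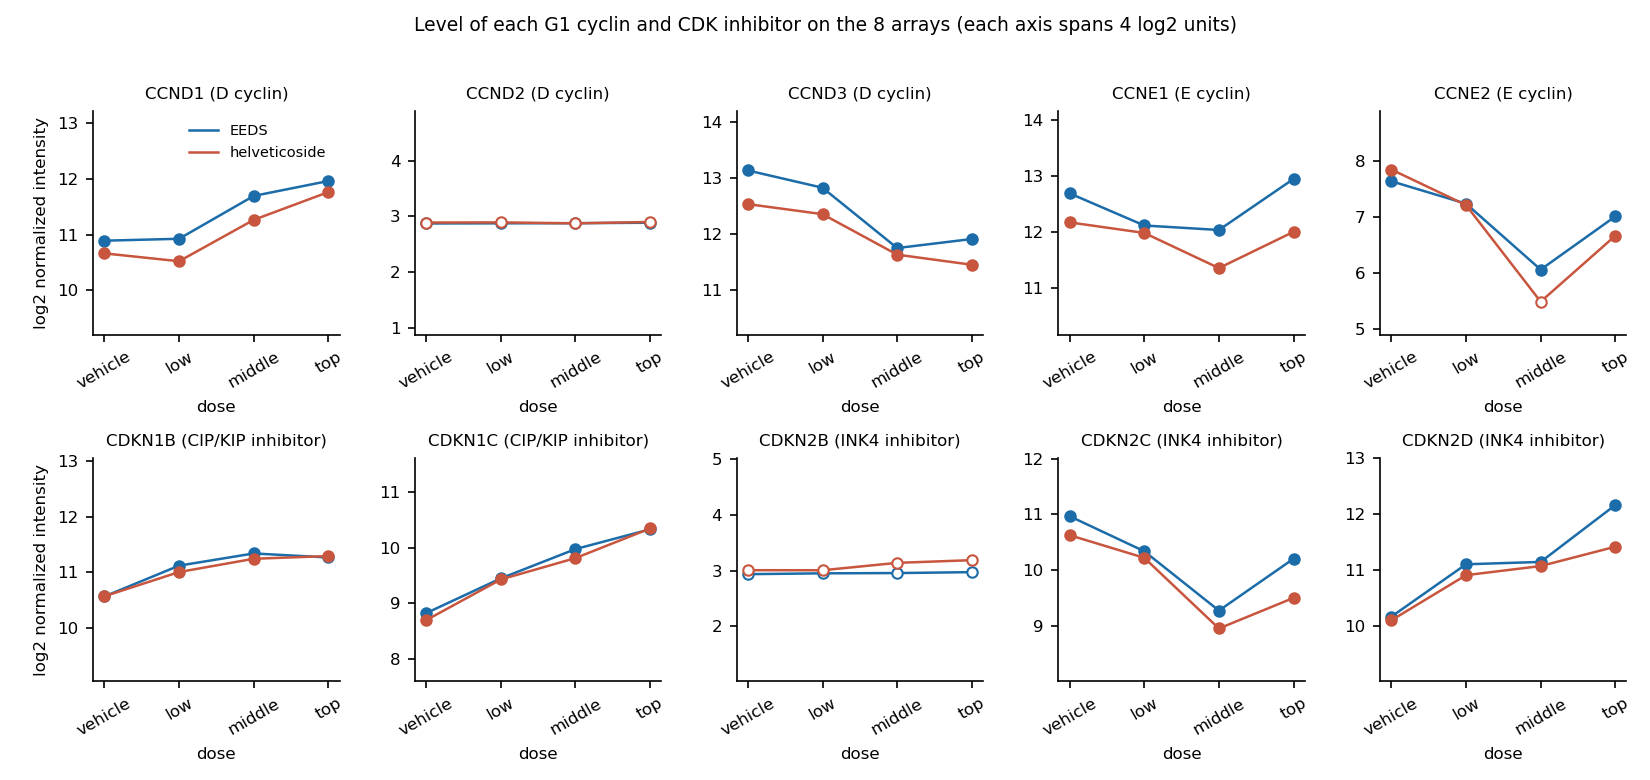
Log2 normalized intensity (vertical axis, 4 log2 units in each panel) of the 10 genes on the vehicle, low, middle and top dose arrays of EEDS (blue) and helveticoside (red), with 1 array per point; open points were not well above background. CDKN1C and CDKN2D lie above the vehicle and CCND3 below it at every dose of both series, CCNE2 and CDKN2C have their lowest point at the middle dose, and CCND2 and CDKN2B lie at background.

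Of the D cyclins, CCND1 was more than 2-fold higher and CCND3 more than 2-fold lower than the vehicle at the top dose of both agents. CCND1, which encodes cyclin D1 and lies on chromosome 11 (69641156 to 69654474), had log2 levels of 10.89, 10.92, 11.69 and 11.96 from the vehicle to the top dose of EEDS and of 10.66, 10.52, 11.26 and 11.76 with helveticoside. In both series the vehicle and low dose arrays were close together and the middle and top dose arrays lay above both. At the top dose the level was 2.10-fold that of the vehicle with EEDS and 2.14-fold with helveticoside, close enough to 2-fold that the call was lost for EEDS with the values the authors deposited (log2 ratio of 0.98) and for helveticoside with the vehicle of the other series (0.87). The slope was 0.40 ± 0.10 log2 units per dose step (SE, 8 arrays) for each agent, with a limma adjusted p of 0.0579 for EEDS and 0.0649 for helveticoside, both just over the threshold of 0.05. Both slopes passed it under 5 alternative settings, among them scaling to the 75th percentile (adjusted p of 0.0231 and 0.0369). The CCND1 probe had 10 spots per array, and their SD was 0.03 to 0.07 log2 units, an error between spots of the same array.

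CCND3 encodes cyclin D3 and lies on chromosome 6 (41934933 to 42050035). Its log2 levels were 13.13, 12.83, 11.74 and 11.91 over the EEDS arrays and 12.53, 12.35, 11.63 and 11.45 over the helveticoside arrays. The middle and top dose arrays of both series lay below every vehicle and low dose array. The level was 2.62-fold and 2.34-fold lower than the vehicle at the middle and top dose of EEDS, and 1.87-fold and 2.12-fold lower with helveticoside. CCND3 fell with EEDS by 0.48 ± 0.11 log2 units per step (limma adjusted p = 0.0468), and the helveticoside slope was -0.40 ± 0.11 (adjusted p = 0.0818). The vehicle array of helveticoside stood 0.60 log2 units below that of EEDS, a gap larger than the SD between these arrays. Against the other series' vehicle, the log2 ratio at the top dose was -0.62 for EEDS and -1.69 for helveticoside. With scaling to the 75th percentile it was -0.96 and -0.84. For helveticoside it was -0.99 with the signal as scanned and -0.96 with the values the authors deposited. The 2-fold call at the top dose thus depends on the vehicle array and the scaling for EEDS, and on the scaling and the signal for helveticoside. CCND2, which encodes cyclin D2 (chromosome 12, 4273762 to 4305353), had log2 levels of 2.87 to 2.90, never well above background, and no fold is given.

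By the probe that stood for each gene, the E cyclins were lower at the middle dose and higher again at the top dose in both series. CCNE1, which encodes cyclin E1, the partner of CDK2 at the entry to S phase, lies on chromosome 19 (29811991 to 29824312). Its log2 levels were 12.69, 12.11, 12.03 and 12.95 with EEDS and 12.17, 11.98, 11.35 and 12.00 with helveticoside. The middle dose gave the lowest of the 4 arrays in each series, 1.58-fold and 1.76-fold lower than the vehicle. With EEDS the low dose array lay close to it. With scaling to the 75th percentile the low dose of EEDS was the lower one, with log2 ratios of -0.52 at the low and -0.49 at the middle dose. At the top dose the log2 ratio was 0.26 with EEDS and -0.17 with helveticoside, and the latter was 0.06 with scaling to the 75th percentile. No trend was called (slopes of 0.07 and -0.11, limma adjusted p of 0.924 and 0.801).

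CCNE2 encodes cyclin E2 and lies on chromosome 8 (94880224 to 94896693). The log2 levels were 7.65, 7.24, 6.06 and 7.02 with EEDS and 7.86, 7.22, 5.49 and 6.67 with helveticoside, where the middle dose array was not well above background. Every treated array lay below its vehicle, and the middle dose array was the lowest of each series. The level was 2.99-fold lower than the vehicle at the middle dose of EEDS, and 1.55-fold and 2.28-fold lower at the top doses. At the middle dose of helveticoside it was 5.16-fold lower by the array's own reading. That reading was not well above background, so the ratio is treated as a bound, and several other settings gave smaller falls. This gene is dim, and the values depended on the background: with the signal as scanned, the middle dose log2 ratios were -0.80 and -1.40 in place of -1.58 and -2.37, and the top dose of helveticoside gave -0.66 with the values the authors deposited in place of -1.19. The second probe of CCNE2 was well above background on only 2 arrays, neither of them in the helveticoside series. With the mean of both probes, the log2 ratios with helveticoside were -1.17, -1.15 and -1.45 over the doses, so that the middle dose was no longer the lowest, while with EEDS they were -0.54, -1.59 and -0.83. Slopes were -0.31 ± 0.31 and -0.53 ± 0.31 (limma adjusted p of 0.586 and 0.331).

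Both CIP/KIP inhibitors among the 10 listed symbols were above the vehicle at every dose of both agents. CDKN1C, which encodes p57, lies on chromosome 11 (2883218 to 2885775) and rose with both agents. Its log2 levels were 8.83, 9.45, 9.97 and 10.33 over the EEDS arrays and 8.70, 9.43, 9.81 and 10.34 over the helveticoside arrays. The level was higher at each dose than at the dose before, in both series. At the top dose the level was 2.83-fold that of the vehicle with EEDS and 3.12-fold with helveticoside. At the middle dose of helveticoside the log2 ratio of 1.11 was 0.91 with the signal as scanned and 0.81 with the values the authors deposited, which ends the 2-fold call there. The slopes were 0.50 ± 0.06 and 0.53 ± 0.06 log2 units per step, with limma adjusted p of 0.0139 and 0.0167. The helveticoside slope minus that of EEDS was 0.03, with a 95% interval of -0.17 to 0.23.

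CDKN1B encodes p27, which is known to be controlled largely through its breakdown by the SCF ubiquitin ligase with SKP2, and lies on chromosome 12 (12717368 to 12722369). The log2 levels were 10.57, 11.12, 11.34 and 11.27 with EEDS and 10.57, 11.01, 11.24 and 11.29 with helveticoside. All 6 treated arrays lay above both vehicle arrays, but none by 2-fold. The level was 1.47-fold, 1.71-fold and 1.62-fold that of the vehicle at the rising doses of EEDS, and 1.35-fold, 1.59-fold and 1.65-fold with helveticoside. A second probe gave log2 ratios of 0.63, 0.67 and 0.89 with EEDS and 0.53, 0.65 and 0.75 with helveticoside, beside 0.55, 0.77 and 0.70 and 0.43, 0.67 and 0.72 of the first. In both series the low dose array lay nearer to the middle and top dose arrays than to the vehicle array, and the slopes of 0.23 ± 0.08 and 0.24 ± 0.08 did not pass the test (limma adjusted p of 0.110 and 0.116). The first probe had 10 spots per array with an SD of 0.02 to 0.06 log2 units.

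Of the INK4 inhibitors, CDKN2D lay above and CDKN2C below the vehicle at every dose of both agents. CDKN2D, which encodes p19, lies on chromosome 19 (10566460 to 10568979) and had the highest mean of both top dose ratios among the members well above background on all arrays. Its log2 levels were 10.16, 11.10, 11.14 and 12.16 with EEDS and 10.10, 10.90, 11.07 and 11.41 with helveticoside. The vehicle arrays of both series lay close together and all 6 treated arrays above them, with low and middle dose arrays near each other. The level was 1.92-fold, 1.97-fold and 4.0-fold that of the vehicle over the doses of EEDS, and 1.75-fold, 1.96-fold and 2.49-fold over those of helveticoside. CDKN2D rose with EEDS by 0.60 ± 0.11 log2 units per step (limma adjusted p = 0.0245), and the helveticoside slope was 0.41 ± 0.11 (adjusted p = 0.0648). The slopes were not shown to differ: the helveticoside slope minus that of EEDS was -0.19, with a 95% interval of -0.56 to 0.18.

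CDKN2C encodes p18 and lies on chromosome 1 (50960745 to 50974634). Its log2 levels were 10.97, 10.34, 9.28 and 10.21 with EEDS and 10.63, 10.22, 8.96 and 9.51 with helveticoside. As for CCNE2, all treated arrays lay below the vehicle and the middle dose was the lowest point. The level was 3.23-fold and 3.18-fold lower than the vehicle at the middle dose of EEDS and helveticoside, and 1.70-fold and 2.18-fold lower at the top dose. The slopes were -0.33 ± 0.24 and -0.46 ± 0.24 (limma adjusted p of 0.399 and 0.264). CDKN2B, which encodes p15 (chromosome 9, 22002903 to 22009313), had log2 levels of 2.93 to 3.19, never well above background. This gives no fold, and a low level of CDKN2B could not be told from background on these arrays.

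**Figure D2:**
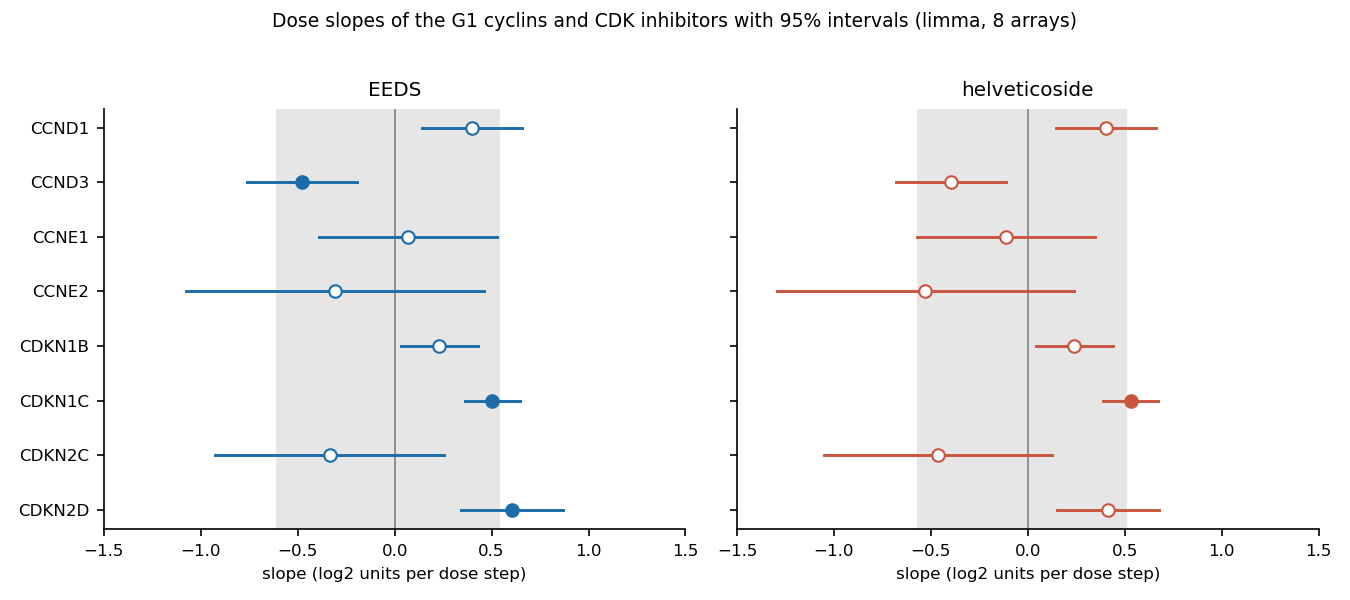
Slope in log2 units per dose step (horizontal axis) of the 8 genes well above background on at least 1 array, with 95% intervals from limma over 8 arrays; filled points have an adjusted p under 0.05, and the grey band runs from the 5th to the 95th percentile of the slopes of 11491 genes (-0.61 to 0.54 for EEDS and -0.56 to 0.50 for helveticoside). CDKN1C is called for both agents, CDKN2D and CCND3 for EEDS, and the widest intervals belong to CCNE2 and CDKN2C.

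The E cyclins and CDKN2C shared a shape over the doses, with the lowest level at the middle dose. This shape was not a planned comparison and describes the levels of these same genes, so its count among them is no test. The middle dose was the lowest of the 4 arrays in both series for CCNE1 and CDKN2C, 2 of the 7 members well above background on all arrays, where 6.71% of 11491 genes had this shape. With scaling to the 75th percentile, CCNE1 had it for helveticoside only. CCNE2 also had the shape, but with a bound at 1 array, and with the mean of both probes it had it for EEDS only. Among 16 S phase genes known to be driven by E2F factors, 8 had this shape, and 15 of the 16 lay below the vehicle at the middle dose of both agents. Their median log2 ratio was -0.55, -0.78 and -0.59 over the doses of EEDS and -0.15, -0.74 and -0.41 over those of helveticoside, where the medians of all genes were between -0.01 and 0.02. Among the lowest of the group at the top dose was MCM4, a subunit of the replicative helicase, with log2 ratios of -1.43 and -1.37 at the middle and top dose of EEDS and of -1.39 and -1.20 with helveticoside. The highest were MCM7, another helicase subunit, with 0.55 and 0.37 at the top dose, and CCNA2, which encodes the S phase cyclin A2, with 0.07 and -0.13. None of the 16 was more than 2-fold higher at either top dose, and 4 were more than 2-fold lower at that of EEDS, where 16.8% of all genes were, and 2 at that of helveticoside, where 14.2% were. The trend test called only CDC45, a helicase cofactor, which fell with both agents (limma adjusted p of 0.0196 and 0.0323).

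**Figure D3:**
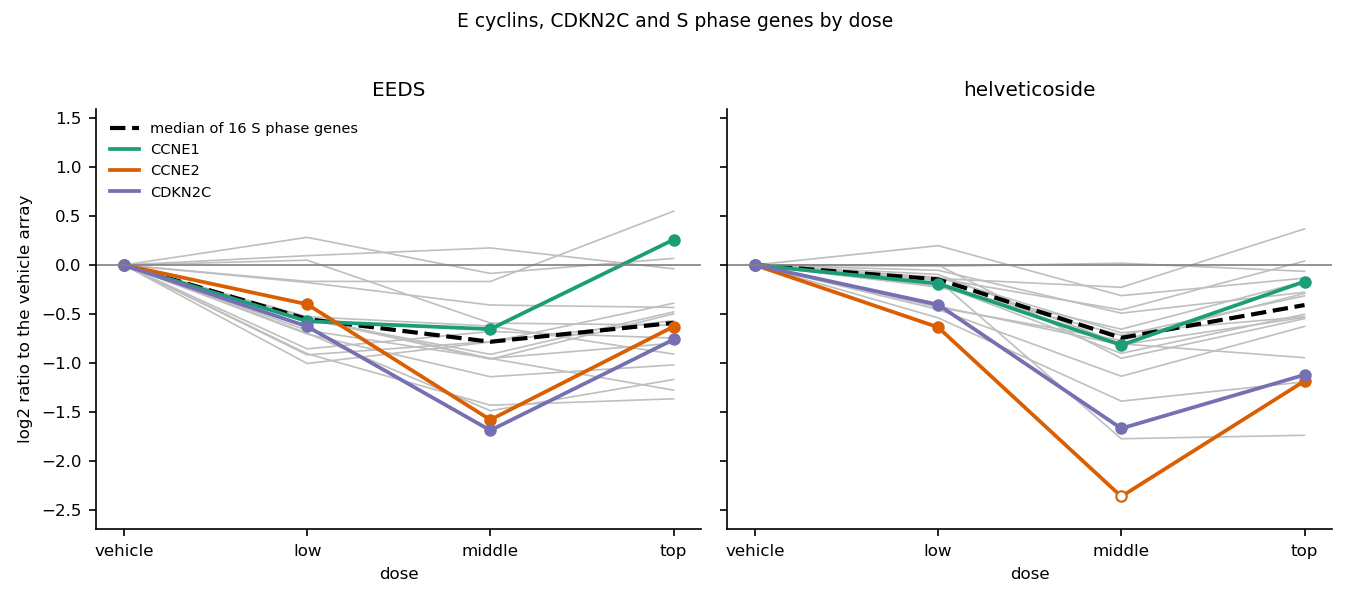
Log2 ratio to the vehicle array of the same series (vertical axis) at the vehicle, low, middle and top dose of EEDS and helveticoside for CCNE1, CCNE2, CDKN2C and, in grey, each of 16 S phase genes, with their median dashed; the open point is a bound. CCNE2 and CDKN2C reach their lowest values at the middle dose, where the median of the S phase genes is -0.78 and -0.74.

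The kinases that these cyclins bind, and the activators of those kinases, were mostly above the vehicle at the top dose. Of 7 G1 kinases and their activators, 4 were more than 2-fold higher at the top dose of EEDS and 3 at that of helveticoside, against 15.5% and 11.5% of all genes, and none was lower, with medians of 1.04 and 0.74. CCNH, the cyclin of the CDK-activating kinase, rose with both agents, with log2 ratios of 2.12 and 1.82 at the top doses (limma adjusted p of 0.0241 and 0.0417). MNAT1, the assembly factor of the same kinase, rose with EEDS (adjusted p of 0.0372 and 0.305). CDK6, a partner of the D cyclins, had log2 ratios of 1.72 and 1.62 (adjusted p of 0.0703 and 0.0779). CDK4, the other partner, had -0.58 and -0.37, and CDK7, the kinase that CCNH activates, had 0.89 and 0.15.

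Of 13 genes of the RB family and E2F factors, 2 rose and 3 fell with EEDS, and 2 rose and 1 fell with helveticoside. Over all genes, 7.30% rose and 7.90% fell with EEDS, and 5.52% rose and 5.85% fell with helveticoside. The median log2 ratios of the 13 were 0.50 and 0.61 at the top doses. E2F5, a repressor E2F, rose with both agents (log2 ratios of 1.5 and 1.64, limma adjusted p of 0.0166 and 0.0175). E2F4, another repressor, had 1.39 and 1.48 and rose with helveticoside (adjusted p of 0.0507 and 0.0418). RBL2, which encodes the pocket protein p130 that binds these E2F factors in resting cells, fell with both, with log2 ratios of -1.8 and -1.74 at the top doses (adjusted p of 0.0201 and 0.0256). E2F2, an activator E2F, had -1.48 and -0.68 and fell with EEDS (adjusted p of 0.0378 and 0.149). E2F3, also an activator, rose with EEDS (adjusted p = 0.0448), and TFDP1, the partner that E2F factors need to bind DNA, fell (adjusted p = 0.0470). E2F1, a further activator, was the only one of the 13 with the middle dose lowest in both series.

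Among 8 parts of the ubiquitin ligases that break down G1 regulators, 2 lay over 2-fold above and 2 over 2-fold below the vehicle at the top dose of each agent, with medians of 0.41 and 0.40. The shares of all genes were 15.5% higher and 16.8% lower for EEDS and 11.5% and 14.2% for helveticoside, and counts this small are not far from them. FBXW7, the F-box protein that recognizes cyclin E, had log2 ratios of 2.10 and 1.17 at the top doses and rose with EEDS (limma adjusted p of 0.0333 and 0.123). CKS1B, which helps SKP2 bind p27, rose with both agents (log2 ratios of 1.01 and 1.24, adjusted p of 0.0165 and 0.0167). The adaptor SKP1 had 0.42 and 0.28, and the RING protein RBX1 had -0.25 and -0.09. FBXO4, an F-box protein, fell with both agents, with log2 ratios of -2.5 at the top dose of EEDS and of -2.65 or lower at that of helveticoside (adjusted p of 0.0178 and 0.0175). SKP2, the F-box protein for p27, had -2.35 and -2.30 or lower (adjusted p of 0.0876 and 0.0785). FBXO4 and SKP2 were not well above background at the top dose of helveticoside, which gives a bound, and were named after their values were seen.

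**Figure D4:**
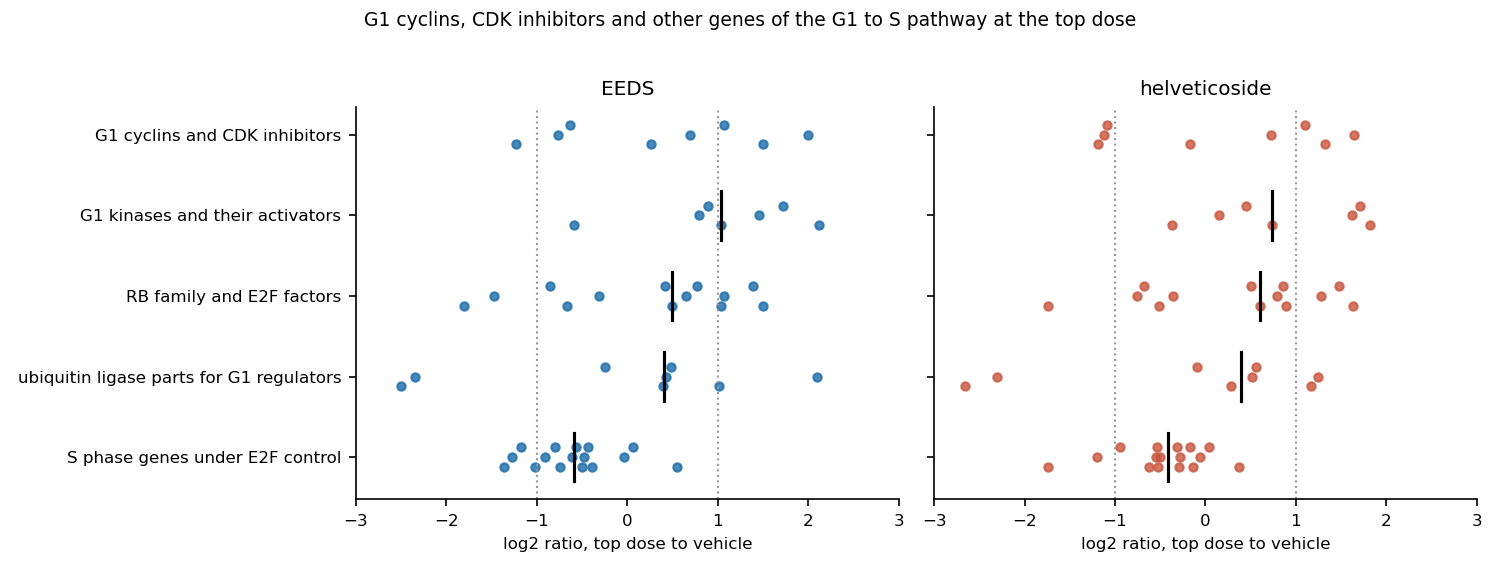
Log2 ratio of the top dose to the vehicle array (horizontal axis) for EEDS and helveticoside; each point is a gene (FBXO4 and SKP2, the leftmost for helveticoside, are bounds), the dotted lines mark 2-fold and the black bars are the medians of the 4 lists of other pathway genes. The G1 cyclins and CDK inhibitors lie on both sides of 0, from CCND3 at -1.23 to CDKN2D at 2.0 for EEDS, while most S phase genes lie below 0.

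Genes whose levels ran most like CDKN2D and CCND3 were sought among 11491 genes by Pearson r over the 8 arrays, after the mean of each series was subtracted. Nearest to CDKN2D were INTS6, a subunit of the Integrator complex (r = 0.996), ING1, a reader of histone methylation (r = 0.994), and HSF2, a heat shock factor (r = 0.992). Nearest to CCND3 were GGT5, a gamma-glutamyl transferase (r = 0.997), KRT8, a keratin (r = 0.993), and GTF2I, a transcription factor (r = 0.993). These values describe 8 arrays that share 2 vehicles and 2 dose series, and the genes named are those with the highest r.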

How the data were processed

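For each of 8 one-colour Agilent arrays, the authors deposited the scanner intensity per spot: a median signal, a local background, a background-subtracted processed signal and calls of outlier and well-above-background spots. The labels name the red dye, while the columns are those of the green channel. A table of processed intensity deposited by the authors was used as an alternative. After control spots and outliers were dropped, the mean processed signal of each probe was quantile-normalized over the 8 arrays and log2-transformed. RefSeq accessions (GRCh38.p14) tied 24809 of 34127 probes to 19053 genes, each represented by its brightest probe on average. The 19043 genes that reached 1.4 times the local background on at least 1 array of each series were kept, with a floor at an array's lowest detected signal. A ratio was counted if the treated or the vehicle array was well above background, and became a bound if only 1 of them was. Dose trends were tested with limma 3.58.1 (R 4.3.3, trend and robust estimation, 4 residual degrees of freedom), tested on simulated data first, with Benjamini-Hochberg adjustment at 0.05. Of each other list, the 2 genes highest and the 2 lowest at the top dose were named among those well above background on all arrays, and further genes of small counts were named after their values were seen. The members and lists were chosen with earlier results of these data known. Values of some genes of this pathway are not reported here. Slides and scan batches were not given in the sources used here. Alternatives were 3 other signals, another scaling, another probe rule, 2 filters, the other vehicle, a threshold of 1.5-fold and 6 other fits.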

Additional observations from a re-analysis of the deposited data

How the results depend on the processing

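Over the alternatives, none of the log2 ratios past 2-fold and none of the slopes passing the test turned its sign. Of 378 ratios recomputed, 358 moved little and 20 moved beyond the spread of the control arrays, all of them of CCND3 or CCNE1 with the vehicle of the other series or of CCNE2 with another signal, probe rule or the authors' values. Of 206 slopes recomputed, 172 stayed on their side of the threshold, 14 passed it newly and 20 lost it. Among 8 genes with a ratio, the counts past 2-fold were 0, 4 and 4 at the rising doses of EEDS and 0, 3 and 6 at those of helveticoside. With a threshold of 1.5-fold they were 3, 8 and 7 with EEDS and 3, 8 and 7 with helveticoside. A lower threshold can only raise such counts, and the share of all genes past 1.5-fold was not computed. With the vehicle of the other series the count at the low dose of EEDS was 1, and with the mean of all probes that at the low dose of helveticoside was 1. With 75th percentile scaling, the median log2 ratio of all genes moved to -0.20, -0.21 and -0.36 over the doses of EEDS and to 0.14, -0.12 and -0.18 over those of helveticoside. For genes well above background on the treated and the vehicle array it was -0.06, -0.03 and -0.08 with EEDS and 0.06 at each dose of helveticoside. Of such genes past 2-fold at the low dose of EEDS, 45.3% were higher in place of 55.4%, the largest shift among the treated arrays.

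Members with a trend numbered 3 for EEDS, where 2894 of 19043 genes were called, and 1 for helveticoside, where 2165 were. The helveticoside count was 2 with the signal as scanned (2592 genes in all), 3 with normexp (2644), 3 with 75th percentile scaling (2489) and 2 with the values the authors deposited (1622). It was 4 with only genes well above background on all 8 arrays, where 2776 of 11491 genes were called. The EEDS count was 4 in each of these settings. Genes called for EEDS numbered 3547, 3574, 3982 and 4605 in the first of them and 3602 of 11491 in the last. Both counts were 0 with the dose as a share of the top dose in place of the step, 0 with only the 4 arrays of the series, and 0 without the low, the middle or the top dose of each series. In the last 4 of these fits, which leave fewer arrays for the spread, limma called 0 of 19043 genes in all for either agent. They thus say little about single genes. No member's slopes differed between the agents under any alternative. No paired analysis was possible, since each dose had 1 array of pooled RNA and so no replicates to pair. One array per dose limits every value, and for CCNE2 the signal over background does too.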
